A study of Oryza sativa Japonica Group with 4 samples.

Results

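Brassinosteroids are the steroid hormones of plants, and rice mutants that cannot make or perceive them are dwarfed, with erect leaves and small grains. The hormone is made from plant sterols by reductases and cytochrome P450 enzymes. At the cell surface it binds the receptor kinase BRI1, which acts with the co-receptor BAK1. Signalling then inactivates GSK3-like kinases such as GSK2, so that transcription factors such as BZR1 can act on their targets. Several synthesis genes are themselves turned down by the hormone, a feedback described in rice for D2, D11 and BRD1 and also for DLT.

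The 10 genes described here were chosen by their place in this pathway, and each was found by its locus identifier among the 28491 genes listed in at least 1 library. They comprise the receptor genes BRI1 and BAK1, the kinase gene GSK2, the transcription regulator genes BZR1, DLT and LIC, and the synthesis genes D2, D11, BRD1 and BRD2. All 10 were listed in all 4 libraries and all 10 passed the filter on low counts.

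The libraries came from seedling shoots of rice, japonica subspecies, taken at the 4-leaf stage without a stress treatment. All seedlings were grown with 14 h of light and 10 h of dark. Of the 4 libraries, 2 came from the wild type cultivar DongJin, and 2 from a modd mutant of the POSTECH mutant library, titled modd2. No allele or agent is shared between the groups in the labels, no sibling line without the mutation is named as the control, and the site of the mutation is not given in the sources used here. Below, the 2 groups are called the modd2 libraries and the wild type libraries. Nothing in the labels tells whether replicates were separate plants, and p-values cover no more than the variation among these libraries, possibly technical. The question is how transcript levels compare in the mutant and the wild type under normal growth.

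The libraries held from 5334814 to 5393972 expected reads, the estimated number of reads per gene summed over genes. MODD (LOC_Os03g11550) was at 36.9 and 46.6 FPKM (fragments scaled by transcript length and library size) in the modd2 libraries and at 21.0 and 21.3 FPKM in the wild type, higher in the group whose label names its mutation (log2 fold change, written log2FC and always modd2 over wild type, of 0.93 ± 0.146, SE, n = 2 per group, with an edgeR adjusted p of 0.0272, and not past the threshold with limma on FPKM values). The mean transcript length assigned to MODD, which depends on the mix of its 2 annotated transcripts, was 1666 bases in both modd2 libraries and 1678 bases in both wild type libraries, so that mix differed between the groups. Which part of the gene gave the reads cannot be told from a count per gene, so directions are given for the libraries as labelled. OsbZIP46 (LOC_Os06g10880) was at 5.24 and 7.23 FPKM against 8.05 and 4.52 FPKM, and its groups overlapped. Along the first principal component of the tested genes, wild type replicate 2 lay farthest from the other 3 libraries, at 44.3 against -31.4, -22.3 and 9.38. The 5 leaf markers summed to 9549 and 10312 FPKM in the modd2 libraries and to 10292 and 12155 FPKM in the wild type. Of these, RBCS (LOC_Os12g19470), LHCB2 and CAB1R did not overlap between the groups and were lower in the modd2 libraries (log2FC -0.42, -0.23 and -0.29). The groups overlapped for RBCS (LOC_Os12g17600) and PSBS1 (log2FC -0.16 and -0.09). OsYSL15, OsNRT2.1 and LSI2, 3 of the 5 root markers, were listed in no library, but the silicon transporter gene LSI1 was at 13.4 and 12.1 FPKM in the modd2 libraries and 11.6 and 9.56 FPKM in the wild type. The sodium transporter gene OsHKT2;1 was at 5.67 and 4.85 against 3.77 and 2.16 FPKM, and its log2FC of 0.78 ± 0.279 (SE, with an edgeR adjusted p of 0.200) was larger than that of any of the 10 genes. The summed root markers, 19.1 and 16.9 FPKM against 15.4 and 11.7 FPKM, did not overlap between the groups, and no leaf or root marker was called. That sum rests on LSI1 and OsHKT2;1 alone, and 49.7% of all tested genes did not overlap. The meristem marker OSH1 was at 0 and 0.44 FPKM against 0.59 and 0.66 FPKM. With 0 and 4 against 8 and 9 reads it was under the count minimum and not tested. The panicle marker OsMADS14 was at 12.8 and 10.96 FPKM against 11.6 FPKM in both wild type libraries. The part of these differences in the values below was not tested. Fewer cells of a type and less RNA per cell cannot be told apart in whole shoots.

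None of the 10 brassinosteroid genes was called between the genotypes by edgeR's quasi-likelihood test at an adjusted p under 0.05, against 0.837% of all 19365 genes tested. At an unadjusted p under 0.05 there were 3, BRI1 and BZR1 with lower values and BRD1 with higher values in the modd2 libraries, beside 16.8% of all tested genes. FPKM values of the groups did not overlap for 8 of the 10, 4 in each direction. Of all tested genes 49.7% did not overlap, 5543 with modd2 above and 4087 with modd2 below the wild type. FPKM values do not carry the scaling factors of the test, and those of DLT were parted only by 2.81 against 2.80. The median log2FC was -0.03 over the 10 genes and 0.00474 over all tested genes, and the median size, sign left aside, was 0.27 and 0.20. In 6 of the 10 genes the 2 libraries of a group lay farther apart than the group means, as they did in 64.1% of all tested genes.

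How far the data limit a difference can be read from the 95% intervals of the fold changes, which are not adjusted for the number of genes. For 7 of the 10 genes the interval lay within a 2-fold change in either direction. It reached past 2-fold for DLT and BRD1, upwards, and for D11, downwards. A missed threshold does not show that the genotypes were alike, and with 2 libraries per group a difference of any size inside these intervals remains possible.

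**Figure D1:**
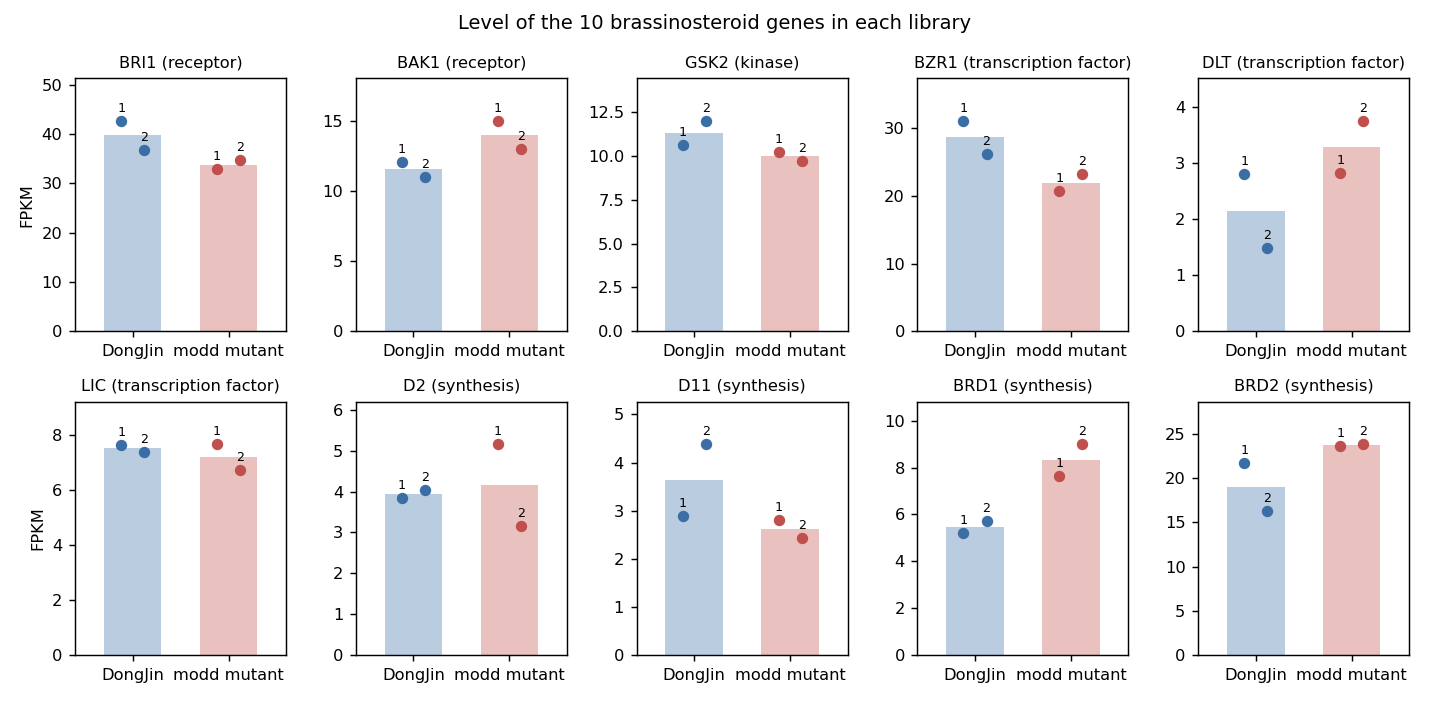
Level of each of the 10 genes in FPKM (vertical axes, starting at 0 and scaled per gene) in the wild type DongJin (blue) and the modd mutant (red), where points are single libraries numbered by replicate and bars are means of 2 libraries. BRD1 sits at 7.64 and 9 FPKM in the modd2 libraries, above 5.20 and 5.71 FPKM in the wild type, while the points of LIC and D2 overlap.

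In the order of their levels per length, BRI1 stood first in every library, with a mean of 36.8 ± 4.29 FPKM (SD, all 4 libraries), at the 87.9th percentile of listed genes. BZR1 and BRD2 followed at 25.4 ± 4.49 and 21.3 ± 3.53 FPKM, with overlapping ranges. BAK1 at 12.8 ± 1.70 FPKM and GSK2 at 10.6 ± 0.991 FPKM overlapped in the same way, as did LIC at 7.34 ± 0.444 FPKM and BRD1 at 6.89 ± 1.76 FPKM. The lowest levels were those of D2 at 4.05 ± 0.830 FPKM, D11 at 3.13 ± 0.860 FPKM and DLT at 2.71 ± 0.933 FPKM, which overlapped with their neighbours, DLT at the 40.3rd percentile. The receptor transcript was thus the most abundant per length of the 10, and the gaps in range fell between BRI1 and BZR1, between BRD2 and BAK1, between GSK2 and LIC, and between BRD1 and D2.

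BRI1 (LOC_Os01g52050) codes for the receptor kinase that binds the hormone, and its loss gives the rice dwarf mutant d61. It was at 32.9 and 34.7 FPKM in the modd2 libraries, from 701 and 742 reads, and at 42.7 and 36.7 FPKM in the wild type, from 913 and 791 reads. Both modd2 libraries lay below both wild type libraries. The mean was 33.8 ± 1.26 against 39.7 ± 4.26 FPKM (SD, n = 2), a log2FC of -0.27 ± 0.107 (SE, with an edgeR adjusted p of 0.238). The interval put the level at 0.701 to 0.975 times that of the wild type.

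BAK1 (LOC_Os08g07760) codes for a receptor-like kinase of the SERK family that pairs with BRI1. Its level was 15.03 and 12.97 FPKM in the modd2 libraries, and 12.1 and 11.03 FPKM in the wild type. The groups did not overlap, and here the modd2 libraries were the higher ones. The log2FC was 0.23 ± 0.136 (SE, with an edgeR adjusted p of 0.424), with an interval from 0.953 to 1.45 times the wild type. It was 0.14 without modd2 replicate 1. Counts of BAK1 held fractions, so some of its reads were shared with similar genes and its level is uncertain to that extent.

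GSK2 (LOC_Os05g11730), the rice counterpart of the Arabidopsis kinase BIN2, holds the pathway in check by phosphorylating regulators such as BZR1 and DLT. It was at 10.2 and 9.70 FPKM in the modd2 libraries and at 10.6 and 12.0 FPKM in the wild type. The groups were separated only by the narrow gap between 10.2 and 10.6 FPKM, and the 2 wild type libraries differed by more than the group means. The log2FC was -0.23 ± 0.169 (SE, with an edgeR adjusted p of 0.532), and the interval ran from 0.658 to 1.11 times the wild type. Leaving out a wild type library moved it to -0.10 (replicate 2) or -0.35 (replicate 1).

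BZR1 (LOC_Os07g39220), a DNA-binding regulator that carries the signal to brassinosteroid target genes, had the smallest adjusted p of the 10. Its level was 20.7 and 23.3 FPKM in the modd2 libraries and 31.2 and 26.3 FPKM in the wild type. Every modd2 library was below every wild type library, by at least the gap between 23.3 and 26.3 FPKM. The means were 22 ± 1.82 and 28.7 ± 3.47 FPKM (SD, n = 2), with a log2FC of -0.42 ± 0.142 (SE, with an edgeR adjusted p of 0.179) and an interval from 0.599 to 0.929 times the wild type.

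The counts of BZR1 held fractions, as did those of its paralogs OsBZR3 (LOC_Os06g35900) and OsBZR4 (LOC_Os02g13900). Added together, the 3 genes came to 222 and 227 reads in the modd2 libraries and to 299 and 271.99 reads in the wild type, whole numbers but for rounding in the files. The reads in question were thus split among these 3 genes, and their sum does not depend on how. With the 3 genes tested as 1 row, a step added after the counts were seen, the log2FC was -0.38 ± 0.12 (SE, with an edgeR adjusted p of 0.152).

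DLT (LOC_Os06g03710) codes for a GRAS-family protein that promotes brassinosteroid responses and is a substrate of GSK2 in rice. It was counted at 47 and 63 reads in the modd2 libraries, and at 47 and 25 reads in the wild type, or 2.81 and 3.75 against 2.80 and 1.48 FPKM. Replicate 1 of each group thus had the same count, and the separation of the groups in FPKM was of no size there. Wild type replicate 2 was low and modd2 replicate 2 was high. The log2FC was 0.58 ± 0.302 (SE, with an edgeR adjusted p of 0.370), the largest of the 10, with an interval from 0.936 to 2.38 times the wild type. Without modd2 replicate 2 it was 0.34. Counting error alone gave 95% Poisson intervals of 16.2 to 36.9 reads for wild type replicate 2 and 34.5 to 62.5 reads for wild type replicate 1.

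LIC (LOC_Os06g49080), a CCCH zinc finger protein gene whose product acts against BZR1 in rice, varied least among the libraries relative to its mean, with a coefficient of variation of 6.05%. Its level was 7.65 and 6.70 FPKM in the modd2 libraries and 7.63 and 7.37 FPKM in the wild type. The groups overlapped, and the log2FC was -0.11 ± 0.188 (SE, with an edgeR adjusted p of 0.815). The interval ran from 0.694 to 1.24 times the wild type, and with a modd2 library left out the log2FC was -0.19 or -0.03.

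**Figure D2:**
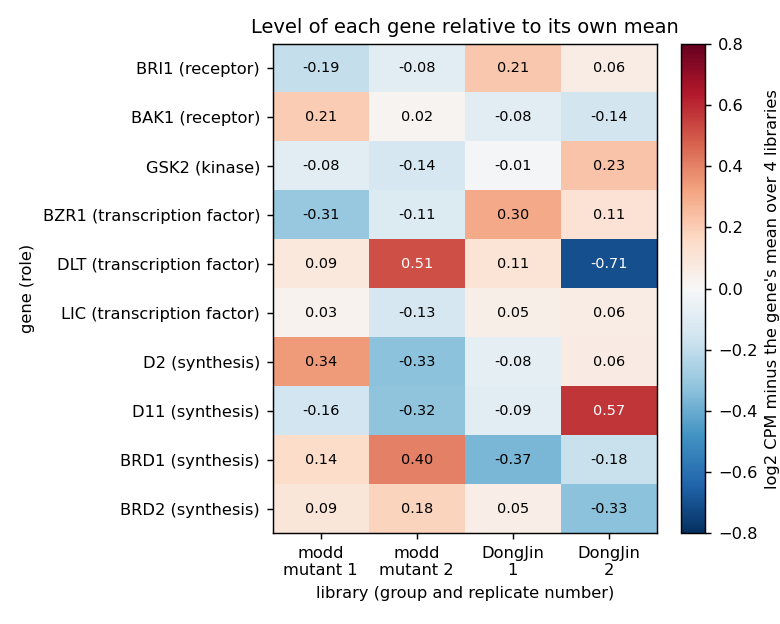
Level of each gene (rows, with its role) in each library (columns) as log2 CPM (counts scaled to library size) minus the gene's mean over the 4 libraries, where red is above and blue below that mean. The widest departures are in wild type replicate 2, at -0.71 for DLT and 0.57 for D11, while BRI1 and BZR1 are below their means in both modd2 libraries.

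The 4 synthesis genes did not share a direction. BRD1 (LOC_Os03g40540), also named OsDWARF, codes for the P450 enzyme that oxidises the C-6 position late in the pathway, and its loss gives a severe dwarf. It was at 7.64 and 9 FPKM in the modd2 libraries, from 82 and 97 reads, and at 5.20 and 5.71 FPKM in the wild type, from 56 and 62 reads. Both modd2 libraries lay above both wild type libraries, and the group difference was wider than the gap within either group. The means were 8.32 ± 0.962 and 5.46 ± 0.361 FPKM (SD, n = 2), with a log2FC of 0.56 ± 0.199 (SE, with an edgeR adjusted p of 0.197). The interval put the level at 1.09 to 2.01 times that of the wild type.

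BRD2 (LOC_Os10g25780), the rice counterpart of Arabidopsis DWF1, codes for a reductase that acts on the sterol side chain before the P450 steps. It was at 23.6 and 23.8 FPKM in the modd2 libraries and at 21.7 and 16.3 FPKM in the wild type. The modd2 libraries were nearly equal, and the separation came mainly from the low wild type replicate 2. The log2FC was 0.26 ± 0.146 (SE, with an edgeR adjusted p of 0.397), and it ranged from 0.09 without wild type replicate 2 to 0.46 without wild type replicate 1.

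D11 (LOC_Os04g39430), coding for the P450 enzyme CYP724B1, had the lowest log2FC of the 10, at -0.54 ± 0.296 (SE, with an edgeR adjusted p of 0.397). Its level was 2.80 and 2.43 FPKM in the modd2 libraries and 2.89 and 4.38 FPKM in the wild type, from 31 and 27 against 32 and 50 reads. Wild type replicate 1 was close to the modd2 libraries, and replicate 2 alone was high. With that library left out the log2FC was -0.15, and with wild type replicate 1 left out it was -0.85 (edgeR adjusted p = 0.0632). The mean transcript length assigned to D11, which depends on the mix of its 2 annotated transcripts, was 2065 bases in 3 libraries and 2106 bases in wild type replicate 2, so reads were assigned to a second transcript there.

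D2 (LOC_Os01g10040), coding for the P450 enzyme CYP90D2, was at 5.16 and 3.16 FPKM in the modd2 libraries and at 3.85 and 4.04 FPKM in the wild type. The wild type libraries lay between the modd2 libraries. The log2FC of 0.06 ± 0.305 (SE, with an edgeR adjusted p of 0.945) changed sign with 1 library left out, from -0.35 without modd2 replicate 1, and -0.02 without wild type replicate 1, to 0.37 without modd2 replicate 2, and its interval ran from 0.649 to 1.66 times the wild type. With 40 and 24 against 29 and 31 reads, Poisson intervals for counting error ran from 28.6 to 54.5 reads and from 15.4 to 35.7 reads in the 2 modd2 libraries.

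**Figure D3:**
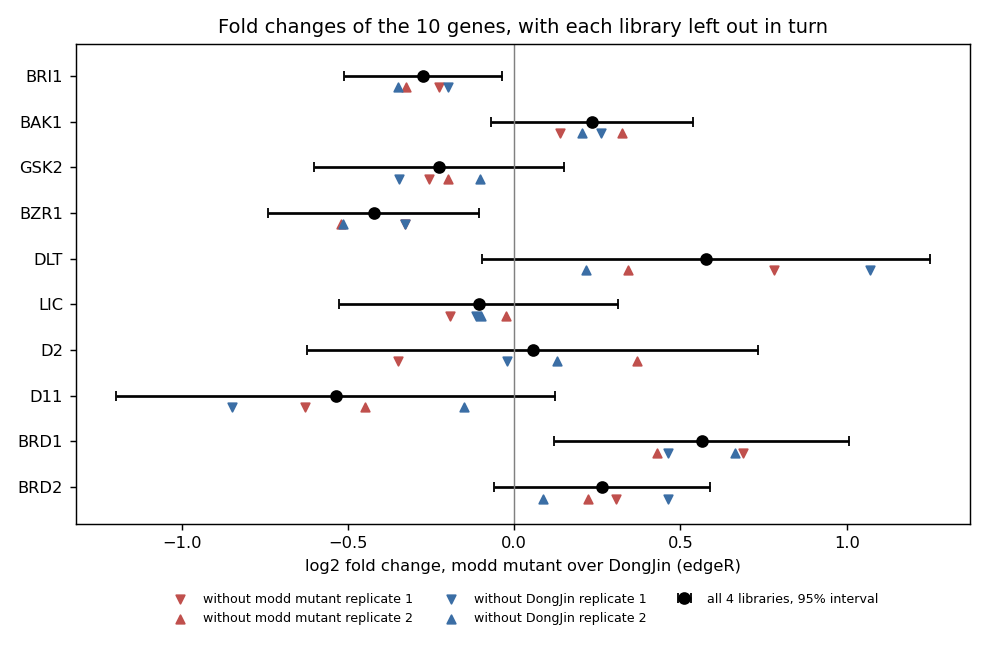
The log2FC of each gene, modd mutant over DongJin (horizontal axis), from all 4 libraries (black points with 95% intervals from edgeR) and with 1 library left out in turn (triangles, named in the key). The intervals of BRI1, BZR1 and BRD1 lie to 1 side of 0 before adjustment for all genes, and the triangles of DLT, D11 and BRD2 spread most with the wild type libraries, as those of D2 do with the modd2 libraries.

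With wild type replicate 1 left out, 2 of the 10 genes passed the threshold. DLT then had a log2FC of 1.07 (edgeR adjusted p = 0.0230) and BRD2 one of 0.46 (edgeR adjusted p = 0.0424), and both were called as higher in the modd2 libraries. In that fit 12.4% of all 20095 genes tested were called, with wild type replicate 2 as the only wild type library. The spread between replicates then came from the modd2 pair alone, and the lone library was assumed to vary as they do. With wild type replicate 2 left out in its place, DLT had a log2FC of 0.22 and BRD2 one of 0.09, and none of the 10 was called.

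Of 31 further genes of the pathway, 26 were tested and none was called by edgeR over all genes, beside the 0.837% of all tested genes. Unadjusted, 1 had a p under 0.05, beside 16.8% of all tested genes. The log2FC values of the 26 were above 0 for 13 genes and below 0 for 13. Their median was 0.00225 and their median size 0.14, beside 0.00474 and 0.20 over all tested genes. The groups did not overlap in FPKM for 10 of the 26, with 7 above and 3 below the wild type. Of all tested genes 49.7% did not overlap, 5543 above and 4087 below the wild type, so FPKM leaned upwards over all genes too.

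**Figure D4:**
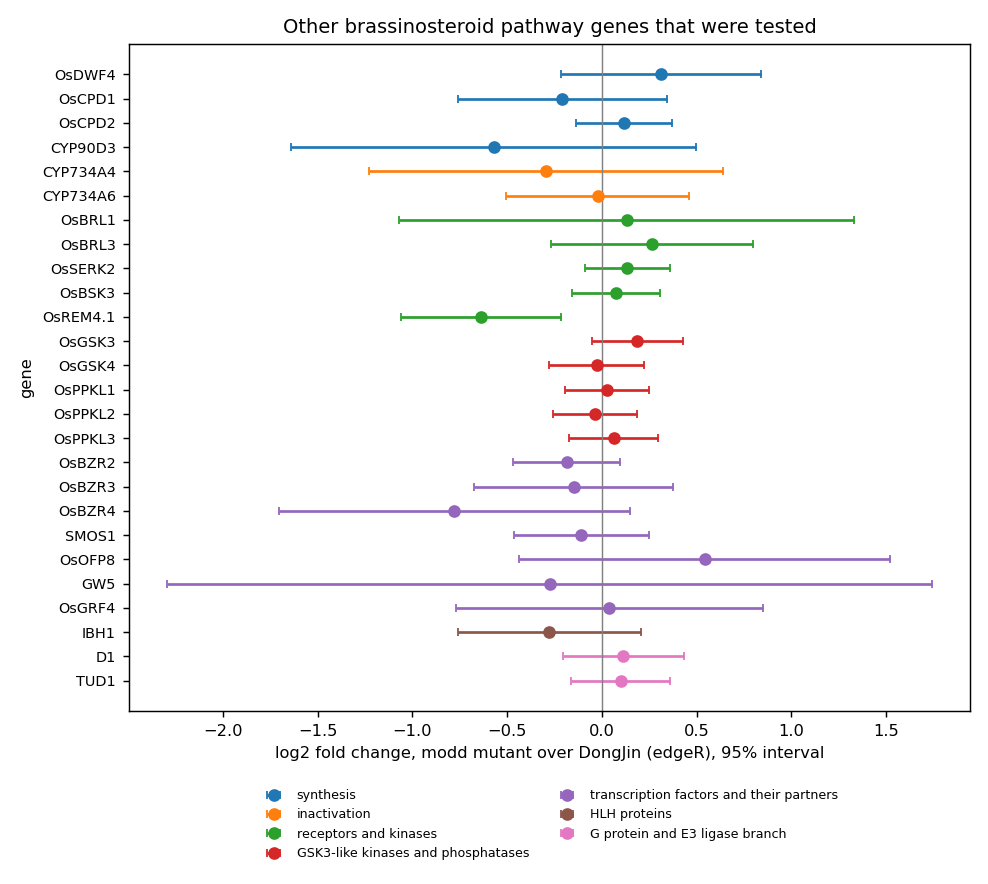
The log2FC, modd mutant over DongJin, of the 26 tested pathway genes other than the 10 (horizontal axis), with 95% intervals from edgeR, coloured by role. The points of the GSK3-like kinases and phosphatases lie within -0.04 and 0.19, and OsREM4.1 is the gene whose interval does not reach 0.

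Among synthesis genes outside the 10, OsDWF4 (LOC_Os03g12660), coding for the C-22 hydroxylase CYP90B2, was at 6.04 and 9.26 FPKM against 6.12 and 5.88 FPKM in the wild type. Replicate 2 of modd2 was the high one, the groups overlapped, and the log2FC was 0.31 (edgeR adjusted p = 0.548). CYP90D3 (LOC_Os05g11130), a relative of D2, had 16 and 6 reads against 18 and 14 reads, with a log2FC of -0.57 (edgeR adjusted p = 0.586) that was -1.42 without modd2 replicate 1 and -0.044 without modd2 replicate 2. OsCPD2 (LOC_Os12g04480), coding for CYP90A4, was at 35.6 and 39.5 FPKM against 33.6 FPKM in both wild type libraries (log2FC 0.12, edgeR adjusted p = 0.639). Of the genes for P450 enzymes that inactivate the hormone, CYP734A4 (LOC_Os06g39880) and CYP734A6 (LOC_Os01g29150) had log2FC values of -0.29 and -0.02, and edgeR gave adjusted p of 0.764 and 0.972, and the groups overlapped for both. The value for CYP734A4 was -0.0062 without wild type replicate 1 and -0.026 without modd2 replicate 1. The sign of the value for CYP734A6 changed without wild type replicate 1, where it was 0.18, and on the FPKM scale.

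Among receptors and membrane proteins, OsREM4.1 (LOC_Os07g38170), which codes for a remorin that hinders the pairing of BRI1 with its co-receptor, had the smallest p of the pathway list. It was at 173.3 and 192.6 FPKM in the modd2 libraries and at 226.9 and 324.0 FPKM in the wild type. The groups did not overlap, and wild type replicate 2 was far above the others. The log2FC was -0.64 ± 0.183 (SE, with an edgeR adjusted p of 0.144). It passed the threshold with DESeq2 (adjusted p = 0.0204, where 2.85% of all genes given an adjusted p were called), with the replicate number as a block (edgeR adjusted p = 0.0102, 4.49% called) and without wild type replicate 1 (edgeR adjusted p = 6.93e-08, 12.4% called, with the spread again from the modd2 pair alone). The fit with the block has fewer degrees of freedom left for the spread. Same-numbered libraries did not deviate together (r = 0.0126 over genes), so the numbers were not taken as pairs. Without wild type replicate 2 the log2FC of OsREM4.1 was -0.32. OsSERK2 (LOC_Os04g38480), a relative of BAK1, was at 53.9 and 55.7 against 49.7 and 47.5 FPKM, and OsBRL3 (LOC_Os08g25380), a relative of BRI1, at 2.32 and 1.85 against 1.76 and 1.61 FPKM. Both had groups that did not overlap, as had 49.7% of all tested genes. Their log2FC values were 0.13 and 0.26, with edgeR adjusted p of 0.532 and 0.618. That of OsBRL3 was 0.10 without modd2 replicate 1 and 0.41 without modd2 replicate 2.

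GSK3-like kinases other than GSK2 and the phosphatases of the PPKL family act against the pathway in the case of OsPPKL1. Their 5 genes had the smallest median size of log2FC among the roles of the pathway list, at 0.038, beside 0.20 over all tested genes. Their median SE was also the smallest among these roles, at 0.106, beside 0.184 over all tested genes. Whether the small size reflects that precision was not tested. OsGSK3 (LOC_Os02g14130) was at 59.5 and 61.6 against 56.1 and 47.4 FPKM (log2FC 0.19, edgeR adjusted p = 0.420). OsPPKL3 (LOC_Os12g42310) and OsPPKL2 (LOC_Os05g05240) had log2FC values of 0.06 and -0.04, and edgeR gave adjusted p of 0.808 and 0.882, and both signs changed with single libraries left out.

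For regulators downstream, OsBZR4 had a log2FC of -0.78 ± 0.416 (SE, with an edgeR adjusted p of 0.380), from 11.4 and 7.68 reads against 17.6 and 13.9. Some of these reads were split among OsBZR4, BZR1 and OsBZR3. OsBZR2 (LOC_Os01g10610), whose counts were whole, was at 36.9 and 35.9 against 37.3 and 43.0 FPKM, with a log2FC of -0.19 (edgeR adjusted p = 0.490). OsOFP8 (LOC_Os01g64430), coding for an OVATE-family protein that GSK2 phosphorylates in rice, had 16 and 11 reads against 9 in both wild type libraries (log2FC 0.54, edgeR adjusted p = 0.573). IBH1 (LOC_Os04g56500), named for an HLH protein that opposes ILI1, had a log2FC of -0.28 (edgeR adjusted p = 0.556), but the gene model under that identifier is 6618 bases long in the files and may hold more than IBH1. In the branch that runs through the G protein alpha subunit D1 (LOC_Os05g26890) and the E3 ligase TUD1 (LOC_Os03g13010), the log2FC values were 0.11 and 0.10, and edgeR gave adjusted p of 0.731 and 0.712. That of D1 changed sign without modd2 replicate 2. Counts of D1 held fractions, so some of its reads were shared with similar genes and its level is uncertain to that extent.

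The 5 pathway genes under the count minimum were OsDET2, a steroid reductase gene with 4 and 5 against 9 reads in both wild type libraries, CYP734A2 with 3 and 2 against 5 and 4, OsOFP1 with 2 and 2 against 10 and 5, and the HLH genes BU1 with 2 and 2 against 7.51 and 2 and ILI1 with 3 and 2 against 1 and 1. BU1 is known as an early brassinosteroid-induced gene of rice, and at these counts a difference in it was not detectable.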

How the data were processed

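Shoot RNA of 4 rice seedling samples was sequenced, with 1 gene table per library. The tools BWA, Bowtie and RSEM are credited to the submitters' processing notes, and the genome build was not given in the sources used here. As read per the file headers, the authors deposited an expected count per gene, in which shared reads are split into fractions, and an FPKM value, that count scaled by length and library. Unlisted genes were taken as 0.

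Groups and replicate numbers come from the sample titles. Expected counts were rounded and tested over all genes with edgeR 4.0.16 in R 4.3.3 (filterByExpr with a minimum count of 10 and a minimum total of 15, TMM factors, robust quasi-likelihood test, Benjamini-Hochberg adjustment, threshold 0.05), which left 19365 genes with a common coefficient of variation of 10.3%. A standard error is the absolute log2 fold change divided by the square root of F, and 95% intervals use the test's degrees of freedom. The fit was also run on counts simulated with the same spread in both groups. That run cannot show how the fit behaves where the groups differ in spread, as here, and nothing is concluded from it. Replicates differed by more than sampling noise (chi-square per degree of freedom 2.54 and 4.5), so no library was taken as a copy of another, which does not show that they came from separate plants.

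The 10 genes and all lists were chosen with earlier results of these data known. Text names the 10, MODD, OsbZIP46 and, per role of the pathway list, up to 3 genes with the smallest p (17 genes), and others are named as chosen after their values were seen or as untested. Symbols were looked up in the RefSeq table of assembly ASM3414082v1, which held none of the identifiers: 7 of 10 and 18 of 32 symbols were found, 7 and 17 on the identifier's chromosome, and the other, OsGSK1, was dropped. Poisson intervals cover counting error only. Alternatives were other scaling factors, DESeq2 1.42.0, other filters, non-robust edgeR, limma 3.58.1 on log2(FPKM + 1) and log2(FPKM + 0.1) for genes averaging 1 FPKM or more, a replicate block and each library left out. Sequences were not used here.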

Additional observations from a re-analysis of the deposited data

How the results depend on the processing

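Over the 13 alternatives, the 10 genes had 127 log2 fold changes with an adjusted p, and 123 of these kept their direction and their side of the threshold. DESeq2 gave no adjusted p for DLT, D2 and D11, and those 3 values kept their direction. The exceptions were the calls of DLT and BRD2 without wild type replicate 1 and the sign of D2, which ran from -0.35 to 0.37 with single libraries left out. No other alternative called any of the 10, and with a library left out the number called ran from 0 to 2. The pathway list had 1 call (OsREM4.1) with DESeq2, 1 with the replicate block, and 0 to 1 with a library left out. Over all genes, 162 calls became 102 with upper-quartile factors, 339 with DESeq2, 764 without the count filter, 870 with the replicate block, 0 with limma on either FPKM scale (3164 and 3120 at an unadjusted p under 0.05), and 144 to 2483 with a library left out. MODD did not pass with limma (adjusted p = 0.103 and 0.117). The cause of these shifts was not tested. Same-numbered libraries did not deviate together (r = 0.0126 over genes), so the numbers were not taken as pairs.

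With 1 library left out, 7 of the 10 genes and 15 of the 17 named pathway genes changed sign or moved by over 1.5 times. In these fits 1 group has a single library, assumed to vary as the other group does. Some signs changed. With a library left out, log2 fold changes ran from -0.056 to 0.26 for D1, -0.012 to 0.14 for OsPPKL3, -0.077 to 0.00040 for OsPPKL2, -0.20 to 0.18 for CYP734A6, -0.045 to 0.59 for OsDWF4, -0.48 to 0.13 for OsCPD1, -0.33 to 0.048 for OsBZR3 and -0.47 to 0.38 for OsbZIP46. With limma they were 0.0066 and 0.0067 for OsPPKL2, 0.025 and 0.032 for CYP734A6, and 0.020 and 0.028 for OsbZIP46. Among the 10 genes the lowest mean counts were those of DLT, D2 and D11, with 24 to 63 reads per library, and some pathway genes were lower still, such as CYP90D3 at 6 to 18 reads. The step that sums BZR1 with its paralogs, and the alternatives for pathway genes, were chosen after seeing the data.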

Other observations

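The following values were picked out after they had been seen. All 4 genes of the BZR family had log2 fold changes below 0, at -0.42 for BZR1, -0.19 for OsBZR2, -0.15 for OsBZR3 and -0.78 for OsBZR4, and none was called. BZR1, OsBZR3 and OsBZR4 share reads, so their values are not independent of each other, and the sign for OsBZR3 changed without modd2 replicate 2 and without wild type replicate 2.

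The paralogs OsCPD1 (LOC_Os11g04710) and OsCPD2, which code for P450 enzymes of brassinosteroid synthesis, also split reads with each other. Their fractional counts added to 541 and 642 reads in the modd2 libraries and to 624 and 528 reads in the wild type. The sums of the groups overlapped.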
